A study of Homo sapiens with 6 samples.

Results

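Of the hypoxia-induced genes outside glycolysis that could be tested, 53.1% were called higher in ENO1-knockdown cells and 0% lower, where 15.1% of all genes tested were called higher and 14.4% lower. The set holds 34 genes, chosen by name as targets of the hypoxia-inducible factors (HIFs), out of 30716 genes in the table, and all 34 were found there. The choice was made with earlier results of these data known, so the shares above are a description only. The leading genes were NDRG1, CCNG2, MXI1 and PPFIA4, while ADM, ANGPTL4, ANKRD37 and P4HA2 did not pass. The cells are labelled SNU16, a human gastric carcinoma line, and had received by lentivirus either a control shRNA (shcon) or an shRNA against the glycolytic enzyme alpha-enolase, ENO1 (shENO1), with puromycin selection of infected cells. Sequencing covered 3 libraries of each group. The submitters call them biological replicates without naming separate cultures, so the p-values measure only the spread between these samples, which may be technical. Only 1 hairpin against ENO1 and 1 line are named, and both groups were grown in the same medium without a named low-oxygen step.

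As background, HIF1A and EPAS1 (HIF-2 alpha) pair with ARNT and bind short elements with the core letters ACGTG or GCGTG near the genes they induce. Prolyl hydroxylases of the EGLN family mark the alpha subunits for destruction through VHL when oxygen is present. Besides the glycolytic enzymes, the targets include vascular growth factors, enzymes that modify collagen, mitophagy receptors, histone demethylases that need oxygen, and feedback transcription factors. Several of them also respond to amino acid stress, to cyclic AMP or to growth factors, so their levels do not read HIF activity alone.

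The core letters stood near the start of most of these genes. RefSeq promoter windows of GRCh38.p14, from 250 bases before to 50 bases after a start site, were at hand for 26 of the 34 genes. ACGTG on either strand was found in at least 1 window of 20 of the 26 (76.9%), compared with 24.9% of all 27305 genes with a window. ACGTG or GCGTG was found in 23 of them, compared with 52.4% of all genes. Part of the matches lie within CACGTG, the E-box read also by factors such as MXI1 and BHLHE40 themselves. It was found in 11 of the 26 and in 8.77% of all genes, and it counts as a match on both strands. These genes were chosen as HIF targets, and their windows were richer in GC (median 69.0%) than all windows (58.7%), so the shares are a description only. A window was at hand for 11 of the 17 genes called higher, NDRG1 not among them. Of genes with a window, ACGTG was present for 10 of 11 called higher and for 9 of 13 that did not pass. The 250 bases before the start are shown for 4 genes that rose and, as a contrast, for 2 that did not pass, with ACGTG and GCGTG of either strand in capitals and each sequence written 5′ to 3′ on the strand of its gene. The 4 that rose are CCNG2 (chr4:77156957-77157206, plus strand), PPFIA4 (chr1:203026241-203026490, plus strand), P4HA1 (chr10:73096867-73097116, minus strand) and BHLHE40 (chr3:4979187-4979436, plus strand).
CCNG2: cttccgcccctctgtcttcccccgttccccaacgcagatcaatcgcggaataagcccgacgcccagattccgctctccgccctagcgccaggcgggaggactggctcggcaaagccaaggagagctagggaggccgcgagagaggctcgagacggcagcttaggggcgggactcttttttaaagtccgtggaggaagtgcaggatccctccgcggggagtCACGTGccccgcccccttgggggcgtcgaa
PPFIA4: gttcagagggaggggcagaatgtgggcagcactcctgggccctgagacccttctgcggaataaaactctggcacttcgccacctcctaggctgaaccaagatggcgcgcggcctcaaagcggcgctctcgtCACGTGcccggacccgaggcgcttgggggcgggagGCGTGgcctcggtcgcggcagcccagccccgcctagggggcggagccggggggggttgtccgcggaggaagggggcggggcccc
P4HA1: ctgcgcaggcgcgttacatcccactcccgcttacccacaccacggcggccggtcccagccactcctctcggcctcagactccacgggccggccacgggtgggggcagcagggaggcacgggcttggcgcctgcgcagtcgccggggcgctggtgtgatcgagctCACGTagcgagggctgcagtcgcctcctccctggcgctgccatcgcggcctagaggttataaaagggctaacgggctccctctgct
BHLHE40: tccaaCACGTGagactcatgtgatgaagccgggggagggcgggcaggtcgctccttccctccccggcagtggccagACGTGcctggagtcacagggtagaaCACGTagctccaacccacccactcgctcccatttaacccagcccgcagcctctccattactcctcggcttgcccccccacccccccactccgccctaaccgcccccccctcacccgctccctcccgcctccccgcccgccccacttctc
The 2 that did not pass are ANKRD37 (chr4:185396591-185396840, plus strand) and PLOD2 (chr3:146161185-146161434, minus strand).
ANKRD37: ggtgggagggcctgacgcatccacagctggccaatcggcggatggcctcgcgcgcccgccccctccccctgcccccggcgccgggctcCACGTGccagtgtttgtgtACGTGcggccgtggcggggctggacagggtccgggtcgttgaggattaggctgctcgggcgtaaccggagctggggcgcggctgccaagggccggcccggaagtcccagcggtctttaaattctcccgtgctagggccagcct
PLOD2: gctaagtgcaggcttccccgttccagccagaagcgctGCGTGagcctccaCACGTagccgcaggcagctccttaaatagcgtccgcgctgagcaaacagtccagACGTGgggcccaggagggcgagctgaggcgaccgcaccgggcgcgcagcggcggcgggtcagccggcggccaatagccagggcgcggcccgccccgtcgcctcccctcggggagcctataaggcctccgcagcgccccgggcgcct
CCNG2, PPFIA4, BHLHE40 and ANKRD37, which did not pass, each carry CACGTG in these stretches. All genes shown were picked by name and hold ACGTG. They therefore cannot show whether the letters separate genes that rose from others.

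The ENO1 transcript checks the labels. Its level was 323, 312 and 386 FPKM in the shcon libraries and 99.5, 84.9 and 91.1 FPKM in the shENO1 libraries, FPKM being fragments counted per kilobase of transcript after scaling for library depth. That is 27.0% of the control level (log2 fold change -1.88, standard error (SE) 0.11, adjusted p = 0.000425 from limma). The libraries held an estimated 15553479 to 16933508 fragments. Throughout, a fold change is the difference of log2(FPKM + 1), shENO1 minus shcon, which understates the change of genes near or below 1 FPKM, and a gene is called at an adjusted p under 0.05 from limma over the 15181 genes averaging 0.5 FPKM or more. Of the epithelial markers looked up, KRT8 and KRT18 were abundant, and CLDN7 was at 20.3 to 36.2 FPKM in shcon and 11.4 to 16.1 FPKM in shENO1 libraries. Over all libraries, CLDN4 lay between 5.79 and 9.80 FPKM and TSPAN8 between 1.83 and 2.76 FPKM. EPCAM lay between 0.819 and 1.59 FPKM, CDH1 between 0.602 and 1.21 FPKM, and KRT19 and CEACAM5 were at or near 0. DCN, LUM and CDH5, known from fibroblasts and endothelium, were detected, while PTPRC, PECAM1 and TIE1 were at or near 0. Of 7 epithelial markers tested, 3 were lower (KRT8, KRT18 and CLDN7), while EPCAM, CDH1, CLDN4 and TSPAN8 were not called. The summed level of the list was 450 to 568 FPKM in shcon and 210 to 247 FPKM in shENO1 libraries, most of it KRT8 and KRT18. Of 4 fibroblast markers tested, 3 were lower, with sums of 22.2 to 29.2 FPKM and 14.5 to 15.1 FPKM. The endothelial list summed to 9.32 to 16.5 FPKM and 3.87 to 5.00 FPKM, nearly all of it CDH5, and the leukocyte list to 0.901 to 1.21 FPKM and 0.830 to 1.38 FPKM. The part of these shifts in the results was not tested. In bulk RNA, fewer cells of a type and less RNA per cell cannot be told apart.

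Of the 34 genes, 32 reached the level required for the test. Among these, 17 rose, 0 fell and 15 missed the threshold. Of all genes tested, 29.5% were called, 15.1% higher and 14.4% lower. A log2 fold change of at least 1 was reached by 3 of the 17 (CCNG2, NDRG1 and MXI1), and 0.823% of all genes tested were called higher at that size. At an unadjusted p under 0.05, limma gave 21 higher and 0 lower, compared with 22.6% and 20.4% of all genes tested. The median log2 fold change of the 32 genes was 0.43, compared with 0.03 for all genes tested, and their values ran from -0.16 for NARF to 1.15 for CCNG2. The shENO1 and shcon libraries did not overlap for 22 of the 32, all of them higher in shENO1, where 25% of all genes tested were separated in that direction and 21.5% in the other. Each shENO1 library stood above the control mean by a similar amount, with a median deviation over the 32 genes of 0.50, 0.39 and 0.43 on the log2 scale. Among the controls, the third library stood apart, at 0.10, compared with -0.03 and -0.06 for the others. It had the highest shcon value for 24 of the 32 genes, against 39.7% of all genes tested.

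**Figure D1:**
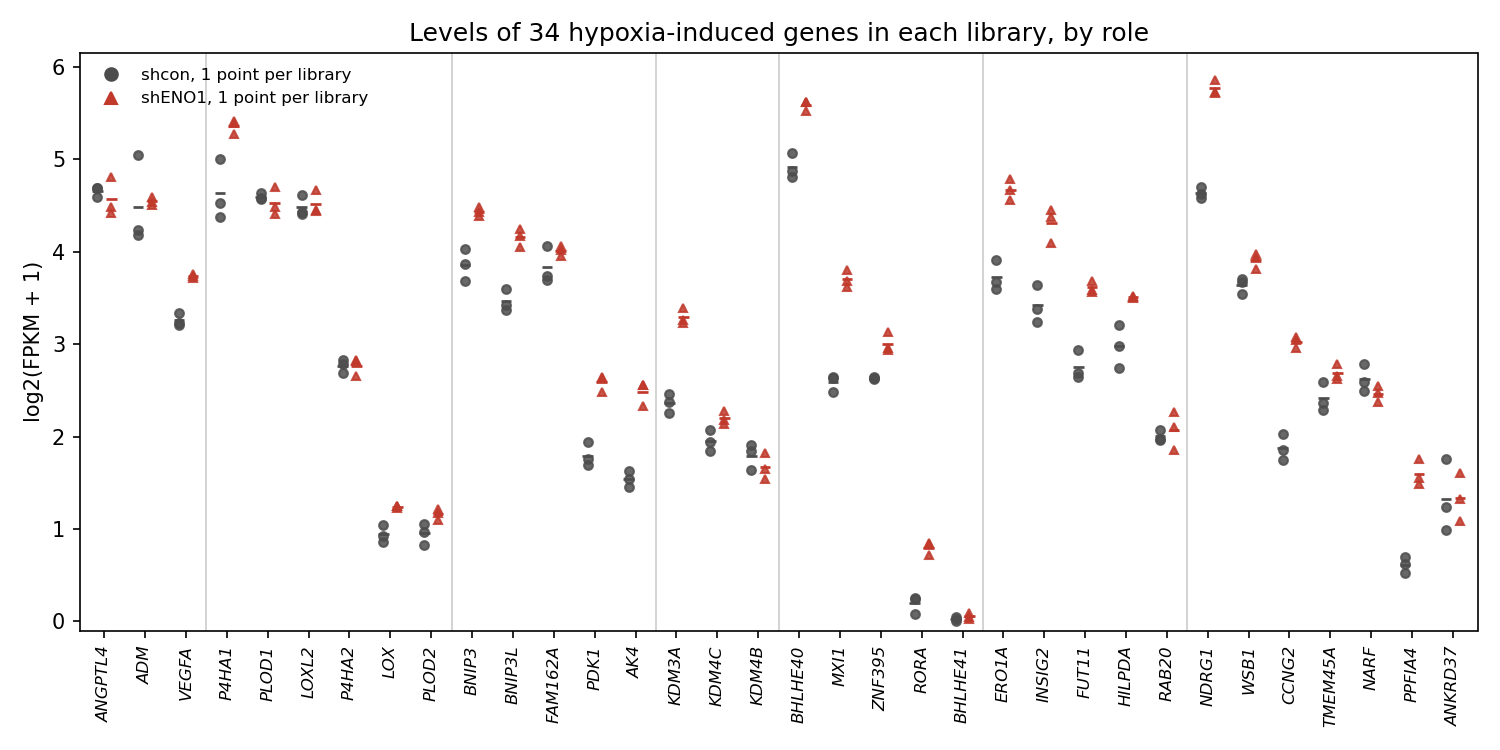
Level of each of the 34 genes in log2(FPKM + 1), grouped by role, with 1 point per library (circles shcon, triangles shENO1) and a short line at the mean of 3 libraries. The triangles lie above the circles for most genes, NDRG1 and BHLHE40 are the most abundant in shENO1 cells, and BHLHE41 lies near 0.

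The fold changes of all genes in these libraries followed the GC content of the transcripts (Spearman's rho = -0.71 across the 7441 genes averaging 5 FPKM or more, and genes are not independent of each other). Across the 32 genes the rho was -0.41, over genes that share the same libraries. The 17 genes that rose had a median GC content of 46.3%, compared with 52.9% for the other 15. After trends over GC content and exon length were removed from each library, all 17 kept their calls and 2 more were called, RAB20 and ANGPTL4. CCNG2 and MXI1 then lay below a log2 fold change of 1, at 0.89 and 0.95, while NDRG1 was at 1.22 and PPFIA4 at 1.08. Of all genes, 8.99% were then called higher and 9.37% lower, and the median of the 32 genes was 0.45. The plot of fold change against GC content shows the genes that rose between INSIG2 at 37.3% and PPFIA4 at 58.4%. The 32 genes ran from 36.1% to 63.5%. Those above PPFIA4, namely ADM, LOXL2, KDM4B and ANGPTL4, did not pass before the trends were removed.

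**Figure D2:**
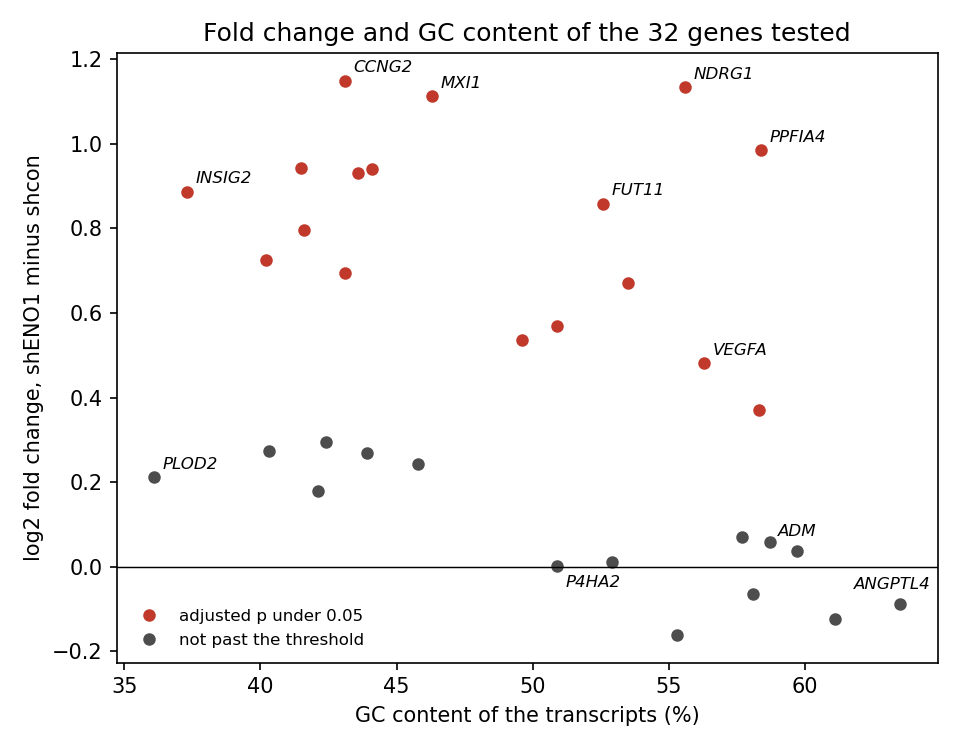
Log2 fold change, shENO1 minus shcon, against the GC content of the transcripts in percent, 1 point for each of the 32 genes tested (red, adjusted p under 0.05). Genes past the threshold span 37.3% to 58.4% GC, and most genes above 55% that did not pass lie close to 0.

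Of the secreted vascular factors, VEGFA rose, whereas ADM and ANGPTL4 did not pass. VEGFA encodes the main growth factor of blood vessels. It was at 8.35, 8.26 and 9.09 FPKM in shcon and 12.6, 12.1 and 12.3 FPKM in shENO1 libraries, without overlap (log2 fold change 0.48, SE 0.08, adjusted p = 0.00698). ADM encodes adrenomedullin, a peptide that widens vessels. Its values were 17.8, 17.1 and 32.2 FPKM in shcon and 23.2, 21.7 and 22.3 FPKM in shENO1 libraries. The shENO1 values agree closely with each other, and the control mean is set by the third shcon library (log2 fold change 0.06, 95% interval -0.45 to 0.56, adjusted p = 0.86). Without that library the log2 fold change was 0.34 (adjusted p = 0.0138), and with the trends removed it was 0.45 (adjusted p = 0.201). ANGPTL4 encodes an inhibitor of lipoprotein lipase. It was at 24.8, 23.1 and 24.8 FPKM in shcon and 27.0, 21.3 and 20.3 FPKM in shENO1 libraries, with the first shENO1 library above all controls and the others below them. Its log2 fold change was -0.09 (interval -0.36 to 0.18, adjusted p = 0.593), but 0.51 (adjusted p = 0.00506) after removal of the GC content and length trends. At 63.5% it has the highest GC content of the 32 genes.

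Of the collagen and matrix enzymes, P4HA1 was the only one of 6 to rise. That share (16.7%) is near the 15.1% of all genes tested that were called higher. P4HA1 and P4HA2 encode catalytic subunits of prolyl 4-hydroxylase, which stabilizes the collagen helix. P4HA1 was at 22.1, 19.8 and 31.0 FPKM in shcon and 37.8, 41.0 and 41.8 FPKM in shENO1 libraries (log2 fold change 0.73, SE 0.16, adjusted p = 0.0141). The lowest shENO1 library was above the highest control, though the third control lay well above the others. The call was lost without shcon replicate 1 (0.67, adjusted p = 0.0567), without shENO1 replicate 2 (0.71, adjusted p = 0.0581) and without shENO1 replicate 3 (0.70, adjusted p = 0.0554), and the value fell to 0.45 with the trends removed. P4HA2 lay between 5.31 and 6.10 FPKM in all libraries, with a log2 fold change of 0.00 (interval -0.21 to 0.22). PLOD1, a lysyl hydroxylase of collagen, was at 23.8, 22.9 and 22.7 FPKM in shcon and 24.9, 21.4 and 20.2 FPKM in shENO1 libraries, with overlap (log2 fold change -0.06, interval -0.29 to 0.16). Its relative PLOD2 was much less abundant, at 0.776 to 1.08 FPKM in shcon and 1.14 to 1.32 FPKM in shENO1 libraries, and did not pass although the groups did not overlap (0.21, adjusted p = 0.202). LOX, which cross-links collagen and elastin, had 0.817 to 1.06 FPKM in shcon and 1.34 to 1.38 FPKM in shENO1 libraries, also without overlap (0.30, adjusted p = 0.0763). LOXL2, of the same family, was at 20.3 to 23.4 FPKM in shcon and 20.7 to 24.5 FPKM in shENO1 libraries (0.04, interval -0.20 to 0.28). With the trends removed, none of these 5 was called, and the values were -0.07 for P4HA2, 0.16 for PLOD1, -0.09 for PLOD2, 0.12 for LOX and 0.32 for LOXL2.

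Of the mitochondrial and nucleotide genes, 4 of 5 rose, where 15.1% of all genes tested were called higher. BNIP3 and BNIP3L encode outer membrane receptors that direct mitochondria to autophagy. BNIP3 was at 13.5, 11.9 and 15.4 FPKM in shcon and 20.5, 19.9 and 21.3 FPKM in shENO1 libraries (log2 fold change 0.57, SE 0.11, adjusted p = 0.00898). BNIP3L was at 9.69, 9.31 and 11.1 FPKM and at 15.6, 17.01 and 17.9 FPKM (0.69, SE 0.10, adjusted p = 0.00469, or 0.44 with the trends removed). In both genes the groups were separate, and the third control was the highest of the controls. PDK1 encodes the kinase that shuts pyruvate out of the mitochondrial acetyl-CoA pathway. It was at 2.23, 2.37 and 2.83 FPKM in shcon and 4.61, 5.26 and 5.2 FPKM in shENO1 libraries, 2.03 times the control mean (0.80, adjusted p = 0.00406, or 0.43 with the trends removed). AK4, an adenylate kinase of the mitochondrial matrix, was at 2.09, 1.92 and 1.75 FPKM and at 4.03, 4.90 and 4.89 FPKM, 2.40 times the control mean (0.94, adjusted p = 0.00312, or 0.72 with the trends removed). Each shENO1 library thus held more of both transcripts than any control. FAM162A, which encodes a mitochondrial protein linked to cell death in hypoxia, was at 11.96 to 15.7 FPKM in shcon and 14.5 to 15.6 FPKM in shENO1 libraries and did not pass (0.18, interval -0.09 to 0.44). Without shcon replicate 3 it was called, at 0.30 (adjusted p = 0.0234), whereas with the trends removed it was at -0.08 (adjusted p = 0.426).

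Of the histone demethylases, enzymes that use oxygen to remove methyl groups from histone H3, KDM3A rose and KDM4B and KDM4C did not pass. KDM3A was at 3.78, 4.18 and 4.51 FPKM in shcon and 8.60, 9.51 and 8.38 FPKM in shENO1 libraries (log2 fold change 0.93, SE 0.10, adjusted p = 0.00229, or 0.61 with the trends removed). KDM4C had 2.59 to 3.19 FPKM in shcon and 3.38 to 3.86 FPKM in shENO1 libraries (0.24, adjusted p = 0.104). KDM4B had 2.10 to 2.76 FPKM and 1.92 to 2.54 FPKM, with overlap (-0.12, interval -0.40 to 0.16). The shENO1 and shcon libraries were separate for KDM3A and KDM4C. With the trends removed, KDM4C was at 0.03 (adjusted p = 0.798) and KDM4B at 0.05 (adjusted p = 0.707).

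All 3 transcription regulators that could be tested rose, MXI1 the most, where 15.1% of all genes tested were called higher. MXI1 encodes a partner of MAX that opposes MYC. It was at 5.22, 4.598 and 5.25 FPKM in shcon and 11.3, 11.8 and 12.9 FPKM in shENO1 libraries, 2.39 times the control mean (log2 fold change 1.11, SE 0.09, adjusted p = 0.00121, or 0.95 with the trends removed). BHLHE40 encodes a repressor of the circadian and hypoxia programmes. It was at 27.0, 28.4 and 32.5 FPKM and at 48.1, 45.1 and 48.1 FPKM (0.67, SE 0.10, adjusted p = 0.00455). Both genes were higher in each shENO1 library than in any control. ZNF395, a zinc finger protein, was at 5.22, 5.14 and 5.26 FPKM and at 7.73, 6.75 and 6.63 FPKM (0.37, adjusted p = 0.0202, or 0.58 with the trends removed). It lost its call without shcon replicate 1 (0.37, adjusted p = 0.075), shcon replicate 2 (0.36, adjusted p = 0.0617), shENO1 replicate 2 (0.40, adjusted p = 0.0692) or shENO1 replicate 3 (0.41, adjusted p = 0.0554), and 34.9% of its exon bases are shared with FBXO16 on the same strand, which had a mean of 0.31 FPKM.
The other regulators were below the level required. RORA encodes a nuclear receptor that activates clock genes. It was at 0.184, 0.191 and 0.0601 FPKM in shcon and 0.641, 0.783 and 0.796 FPKM in shENO1 libraries, 5.10 times the control mean and without overlap. With no filter on low values the log2 fold change was 0.60 (adjusted p = 0.0201 from limma over 30716 genes, of which 4.56% were called higher and 4.24% lower), and it rests on an estimated 17 to 52 fragments per shcon library and 178 to 226 per shENO1 library. These fragment numbers are less certain, since the annotated exon length of RORA did not give whole fragments. BHLHE41, a relative of BHLHE40, was at 0 to 0.0319 FPKM in shcon and 0.0153 to 0.0667 FPKM in shENO1 libraries, about 0 to 4 fragments, so no difference was detectable at this depth.

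Of the genes acting in lipid storage, the endoplasmic reticulum and the Golgi apparatus, 4 of 5 rose, compared with 15.1% of all genes tested. ERO1A encodes the oxidase that drives disulfide formation in the endoplasmic reticulum. It was at 11.1, 11.8 and 14.1 FPKM in shcon and 22.6, 24.5 and 26.6 FPKM in shENO1 libraries (log2 fold change 0.94, SE 0.11, adjusted p = 0.00335, or 0.58 with the trends removed). INSIG2 encodes a protein that retains the sterol sensor SCAP in that compartment. It was at 8.47, 9.40 and 11.5 FPKM and at 16.1, 19.8 and 20.9 FPKM (0.89, SE 0.14, adjusted p = 0.00563, or 0.47 with the trends removed). ERO1A was at 1.99 and INSIG2 at 1.93 times the control mean, and the lowest shENO1 library was above the highest control. FUT11, a fucosyltransferase, was at 5.44, 5.26 and 6.63 FPKM and at 11.05, 11.9 and 10.8 FPKM (0.86, SE 0.10, adjusted p = 0.00344). HILPDA encodes a small protein of lipid droplets that inhibits triglyceride breakdown. It was at 6.91, 5.68 and 8.25 FPKM and at 10.4, 10.3 and 10.5 FPKM (0.53, SE 0.12, adjusted p = 0.0176), with controls more spread than the shENO1 libraries. HILPDA lost its call with no filter (0.53, adjusted p = 0.0519), without shcon replicate 1 (0.54, adjusted p = 0.0617), without shENO1 replicate 2 (0.54, adjusted p = 0.0668) and without shENO1 replicate 3 (0.53, adjusted p = 0.063). RAB20, a small GTPase of endosomes and phagosomes, was at 2.91 to 3.19 FPKM in shcon and 2.62 to 3.82 FPKM in shENO1 libraries and did not pass (0.07, interval -0.21 to 0.35), though it was called with the trends removed (0.43, adjusted p = 0.0205). RAB20 rests on an estimated 67.4 to 94.3 fragments per library. Its annotated exon length, used for this number and for the trends, did not give whole fragments, so both are less certain.

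Of the other 7 genes, NDRG1, CCNG2 and PPFIA4 rose (42.9%), compared with 15.1% of all genes tested. NDRG1 encodes a cytoplasmic protein of differentiation and stress and was the most abundant of the 34 genes in shENO1 cells. It was at 23.6, 23.0 and 25.1 FPKM in shcon and 57.0, 52.2 and 51.7 FPKM in shENO1 libraries, 2.24 times the control mean (log2 fold change 1.13, SE 0.08, adjusted p = 0.000874). The gap between the groups exceeded the spread within either of them, and removal of the trends gave 1.22. CCNG2 encodes cyclin G2, which slows the cell cycle. It was at 2.35, 2.62 and 3.08 FPKM and at 6.77, 7.27 and 7.41 FPKM, 2.66 times the control mean (1.15, SE 0.10, adjusted p = 0.00155, or 0.89 with the trends removed). PPFIA4 encodes liprin alpha 4, a scaffold protein. It was at 0.626, 0.438 and 0.533 FPKM and at 2.39, 1.93 and 1.80 FPKM, 3.83 times the control mean, the largest ratio among the 32 genes tested (0.98, SE 0.12, adjusted p = 0.00367). On a scale with a pseudocount of 0.1 its log2 fold change was 1.76.
The remaining genes of this group did not pass. WSB1, a ubiquitin ligase component, was at 10.65 to 12.02 FPKM in shcon and 13.0 to 14.7 FPKM in shENO1 libraries, without overlap (0.27, adjusted p = 0.0584), and TMEM45A, a membrane protein, at 3.89 to 5.03 FPKM and 5.15 to 5.89 FPKM, also without overlap (0.27, adjusted p = 0.0935). With the replicate number as a block, where 19.3% of all genes were called higher and 17.9% lower, both were called higher by limma (adjusted p = 0.0292 for WSB1 and adjusted p = 0.0443 for TMEM45A), and both were near 0 (-0.02 and -0.06) with the trends removed. WSB1 was also called without shcon replicate 3 (adjusted p = 0.0482) and without shENO1 replicate 1 (adjusted p = 0.0452), and TMEM45A without shcon replicate 3 (adjusted p = 0.0226). NARF, which binds prelamin A, was at 4.62 to 5.91 FPKM and 4.17 to 4.84 FPKM (-0.16, interval -0.41 to 0.09, or -0.09 with the trends removed). ANKRD37 was at 2.37, 1.36 and 0.988 FPKM in shcon and 2.04, 1.13 and 1.51 FPKM in shENO1 libraries, with a spread wider than the difference (0.01, interval -0.49 to 0.51, or 0.12 with the trends removed). It rests on an estimated 37 to 87 fragments per library, and 35.2% of its exon bases are shared with UFSP2 on the opposite strand, at a mean of 4.44 FPKM, so reads of the partner may be included.

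**Figure D3:**
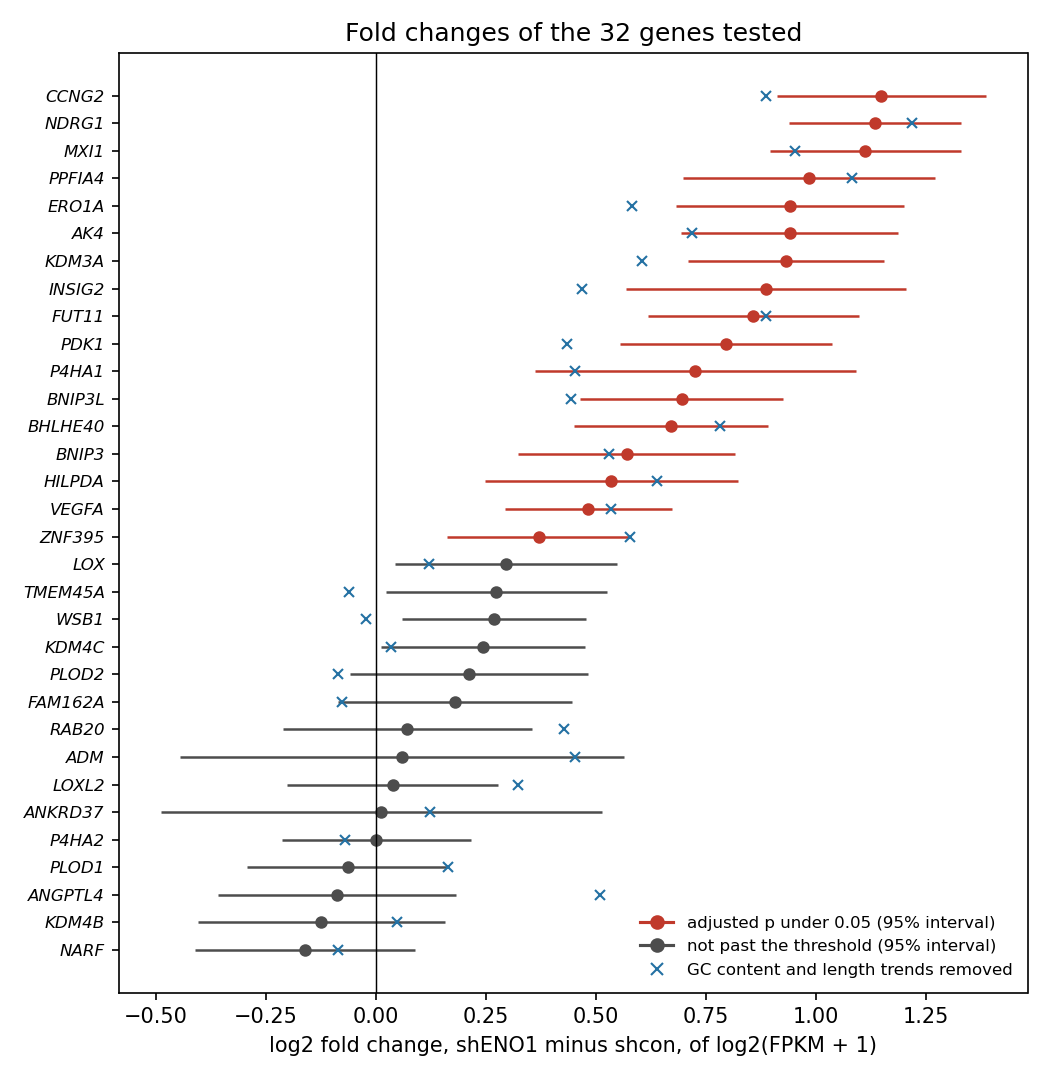
Log2 fold change of log2(FPKM + 1), shENO1 minus shcon, for the 32 genes tested (circles, with 95% intervals from limma; red, adjusted p under 0.05) and the same after correction for GC content and exon length (crosses). The circles of CCNG2, NDRG1 and MXI1 lie above 1, and the crosses of CCNG2 and MXI1 lie below it. The crosses of ANGPTL4, ADM and RAB20 lie to the right of their circles.

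Related genes within the set were compared by their FPKM ratio in each library, since a call in 1 gene and none in another does not show that they differ. These pairs were not among the planned comparisons. The ratios use the same library values as the calls above, so they are a description and give those calls no separate support. For 6 pairs, a two-sided exact permutation test of the log2 ratio cannot give less than p = 0.1 with 3 libraries against 3, and p adjusted over the 6 pairs cannot pass 0.05. The KDM3A/KDM4C ratio was 1.46, 1.31 and 1.58 in shcon and 2.44, 2.46 and 2.48 in shENO1 libraries (exact p = 0.1, adjusted p = 0.15). The KDM3A/KDM4B ratio was 1.37, 1.62 and 2.14 and then 3.39, 4.46 and 4.37 (exact p = 0.1). Both ratios were thus higher in every shENO1 library than in any control, by 0.77 and 1.27 on the log2 scale, or 0.66 and 0.64 with the trends removed. The P4HA1/P4HA2 ratio was 3.76, 3.65 and 5.08 in shcon and 6.21, 7.71 and 6.92 in shENO1 libraries (exact p = 0.1), a difference of 0.75, or 0.55 with the trends removed. The LOX/LOXL2 ratio also separated the groups (0.53, exact p = 0.1), and the PLOD2/PLOD1 ratio did not (0.48, exact p = 0.2), but both differences were below 0 with the trends removed, at -0.10 and -0.33. The BNIP3/BNIP3L ratio was 1.28 to 1.40 in shcon and 1.17 to 1.31 in shENO1 libraries, a difference of -0.14 (exact p = 0.2), or 0.08 with the trends removed.

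**Figure D4:**
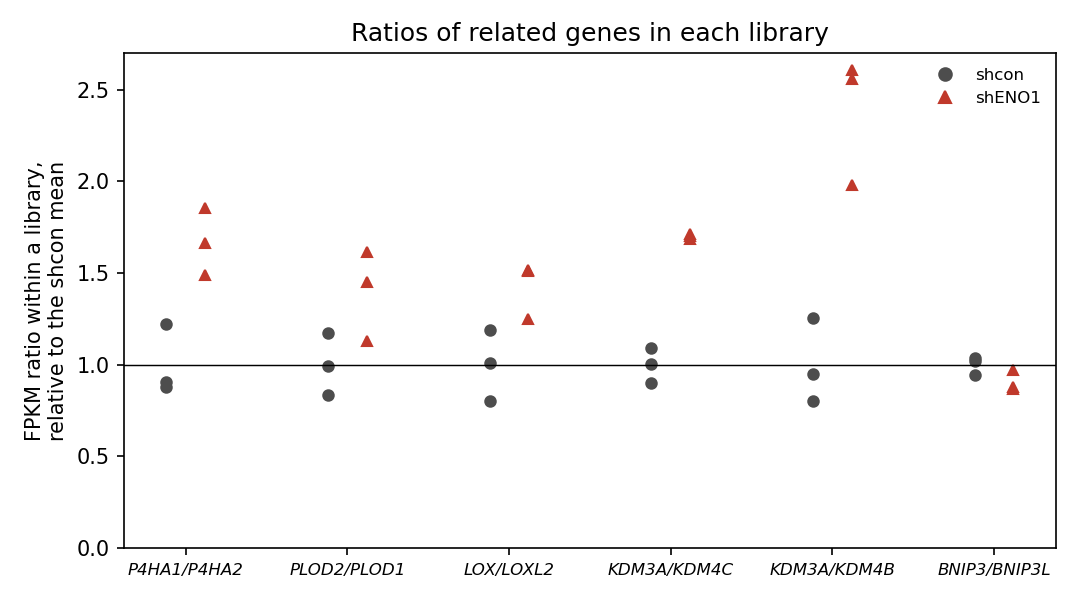
FPKM ratio of related genes within each library, divided by the mean ratio of the 3 shcon libraries (line at 1), with 1 point per library (circles shcon, triangles shENO1). The ratios of KDM3A to KDM4C and KDM4B and of P4HA1 to P4HA2 are higher in every shENO1 library than in any shcon library.

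Other lists of the pathway are read against the 15.1% of all genes called higher and 14.4% called lower. All were chosen with earlier results of these data known, so their shares are a description only. Of 17 tested regulators of HIF, 5 (29.4%) were higher and 3 (17.6%) lower, among them the oxygen sensor EGLN3 at 0.63 and the co-regulators CITED4 at -1.70 (-0.59 with the trends removed) and CITED2 at -0.97, which limit HIF, and ELOB, a partner of VHL, at -0.98 (-0.37 with the trends removed). The count of 5 fell to 2 without shcon replicate 1, to 1 without shENO1 replicate 2 and to 2 without shENO1 replicate 3. Over all genes tested, the count called higher also fell in these fits, from 2289 to 928, 753 and 957. The HIF alpha genes, named here for their role, were at 0.39 for HIF1A (adjusted p = 0.0176) and 0.46 for EPAS1 (adjusted p = 0.0115), and with the trends removed HIF1A was at -0.04 and not called and EPAS1 at 0.50. Of 20 HIF-induced genes of glycolysis, 5 (25%) were higher, SLC2A3 and ENO2 among them at 1.21 and 0.91, and 3 (15%) were lower, ENO1 itself and PFKL among them. ENO1 is the target of the shRNA, so its place among the 3 was set by the design. In both lists, with ENO1 counted, the share called lower was near that of all genes before the trends were removed. With the trends removed, 8.99% of all genes were called higher and 9.37% lower. Of the 17 HIF regulators, 4 were then higher and 4 lower, and their median moved from 0.18 to -0.04. Of the 20 glycolysis genes, 6 were then higher and 2 lower. The median of the glycolysis genes was -0.03, or 0.16 with the trends removed, and the count of 5 was 8 without shcon replicate 3. Over all genes tested, the count called higher rose from 2289 to 3028 without that library. Of 15 other hypoxia-induced genes tested, 7 (46.7%) were higher, with CA9 at 4.06, STC1 at 2.53, STC2 at 1.83 and CXCR4 at 1.51, and 0 were lower (1 without shcon replicate 3). The difference between these lists and the 34 genes was not tested.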

How the data were processed

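RNA of the cells labelled SNU16 was sequenced in 3 shcon and 3 shENO1 libraries, grouped by their titles. Per the labels, the authors trimmed and filtered reads and assigned them to genes of GRCh38, with cutadapt, featureCounts and MultiQC named without versions. They deposited 1 table of FPKM for 30716 genes. The choice of aligner, annotation release, strand setting and FPKM program is not given in the sources used here. Depth was estimated from the step between low FPKM values at the exon length of GENCODE release 29, so fragment numbers are approximate, and intervals cover the spread between libraries only. For RAB20, RORA and LOX that length did not give whole fragments, so their numbers are less certain. The 34 genes and all lists were chosen with earlier results of these data known.

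The test was limma (version 3.58.1, R version 4.3.3, lmFit and eBayes with trend) on log2(FPKM + 1) of the 15181 genes averaging 0.5 FPKM or more, with Benjamini-Hochberg adjustment over all of them. All 34 genes are named, and those called or among the 5 most abundant are given with every library value, together with ADM, RORA and ANKRD37, which were added after their values were seen. Of a comparison list at most 4 called genes are named, apart from HIF1A, EPAS1 and ATF4. Equally numbered libraries deviated together weakly (correlations of 0.23, 0.118 and 0.256 across genes), compared with -0.208 to 0.061 for differently numbered ones. Deviations were taken from the mean of each group, so these correlations depend on each other. They are the only source for the pairing, and a fit with the replicate block was an alternative. The other alternatives were a pseudocount of 0.1, no filter, a minimum mean of 5 FPKM, median-of-ratios scaling, quantile normalization, robust eBayes, each library left out, and natural splines with 4 degrees of freedom over GC content and exon length, fitted for each library on 7361 genes outside all lists and removed, alone or with the block. GC content and length were at hand for 99% of the genes tested, the 34 included. Any biological difference that runs along GC content is removed with the trends. The fit was tested on simulated data. Tables, promoter windows and figures were made in Python 3.11.15 (numpy 2.4.6, pandas 2.3.3, matplotlib 3.10.9).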

Additional observations from a re-analysis of the deposited data

How the results depend on the processing

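Over 15 alternatives, the count of members of the set called higher lay between 14 (a mean of at least 5 FPKM, and 3 of the libraries left out) and 21 (without shcon replicate 3), and the count called lower was 0 throughout. At a mean of at least 5 FPKM, PDK1, AK4, CCNG2 and PPFIA4 fell below the filter and were not tested. The other called genes kept their calls there, and WSB1 was added. Of the 17 genes called, 14 were called in every alternative that tested them, all except P4HA1, ZNF395 and HILPDA. The replicate block changed the call of WSB1 and TMEM45A and of no other gene of the set (19 called higher, with 19.3% of all genes called higher and 17.9% lower). With removal of the trends over GC content and length plus the replicate block, 19 genes of the set were also called higher. The median of the set was 0.52 with a pseudocount of 0.1 and 0.55 at a mean of at least 5 FPKM, where 6 libraries left out in turn gave 0.39 to 0.45. ANGPTL4 turned to 0.51 with the trends removed, with or without the block. ENO1 kept its call in all alternatives, at -1.94 to -1.60. Over all genes, 2289 were higher and 2188 lower. These counts were 1402 and 1302 with no filter, 1365 and 1423 with the trends removed, and 1321 and 1340 with the trends removed and the block, and ran from 753 to 3028 and from 756 to 2799 with 1 library left out (753 and 756 without shENO1 replicate 2, 957 and 897 without shENO1 replicate 3, 928 and 938 without shcon replicate 1, 1518 and 1454 without shcon replicate 2). The cause was not tested. Scaling moved the median of all genes from 0.03 to 0.00 (median of ratios) or 0.01 (quantile). Depth limits BHLHE41, ANKRD37, RAB20, LOX, PLOD2, RORA, HILPDA and PPFIA4 most (at most 377 fragments in any library).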

Other observations

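Genes induced by ATF4, the transcription factor of the amino acid stress response, were set beside the hypoxia-induced genes, since a few of the latter are known to respond to both. Of 13 genes tested on that list, which includes ATF4 itself, 9 were higher and 0 were lower by limma, compared with 15.1% and 14.4% of all genes tested. After removal of the GC content and length trends the counts were also 9 and 0, compared with 8.99% and 9.37% of all genes. The list had a median log2 fold change of 0.86, or 0.75 with the trends removed. The cystine transporter SLC7A11 was at 2.11, the glutathione-degrading enzyme CHAC1 at 2.10, the leucine sensor SESN2 at 1.26 and the serine synthesis enzyme PSAT1 at 1.25. SLC7A11 was at 4.93, 5.06 and 5.99 FPKM in shcon and 23.7, 28.5 and 26.7 FPKM in shENO1 libraries. ATF4 itself was at 78.2, 78.5 and 99.7 FPKM and at 118, 112 and 122 FPKM (0.46, adjusted p = 0.0213 from limma, or 0.75 with the trends removed). No difference between this list and the hypoxia-induced genes was tested, and both were chosen with earlier results of these data known.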
